A study of Saccharomyces cerevisiae with 32 samples.

Results

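CMP is 1 of 8 natural isolates of Saccharomyces cerevisiae, the budding yeast, in a study of how mRNA levels and their translation vary among genetic backgrounds. The others are CQC, CPI, BTT, BPL, BED, BAN and AMH. All 8 are labelled wild type, were grown in SC medium, and are each 1 strain. Each has 2 RNA-seq libraries, which count mRNA fragments, and 2 ribosome profiling libraries, which count the short mRNA pieces that ribosomes protect from RNase I (footprints). The libraries labelled CMP, 2 of 16 in each assay and 4 of 32 in all, were chosen by that label and compared with the mean of the other 7 isolates (14 libraries in each assay) across 6696 open reading frames. The labels do not say that the 2 libraries of an isolate came from separate cultures, so p-values rest on a spread that may be technical.

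The gene groups in which CMP stood apart belong to programs that yeast runs in answer to its surroundings. Genes of thiamine synthesis are switched on by Thi2, Thi3 and Pdc2 when thiamine is short, and genes of zinc uptake by Zap1 when zinc is short. Genes of the respiratory chain are driven by Hap4 and its partners when glucose no longer represses them, while Upc2 raises sterol synthesis and cell wall mannoproteins when oxygen, heme or sterol is low. The footprint level of a gene reflects both how much mRNA there is and how many ribosomes each mRNA carries, and the ratio of footprints to mRNA is called translation efficiency.

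CMP was sequenced to 6128168 and 5783279 mRNA reads (3703931 to 11570247 over all 16 libraries) and to only 145164 and 99809 footprint reads (27621 to 4391002, with both BAN libraries shallower than CMP). Levels are in CPM (counts per 1000000 reads), scaled within each assay. A difference is the log2 fold difference of CMP from the mean of the logarithms of the other 7 isolates, given ± its standard error and negative where CMP was lower. An isolate near 0 therefore weighs heavily on it, and it can differ from the ratio of the means. A gene was called higher or lower where the adjusted p of edgeR's quasi-likelihood test over all genes tested was under 0.05. The a-specific, alpha-specific, haploid-specific and sporulation genes used as cell state markers had summed mRNA levels in CMP of 35.1 to 38.0, 7.82 to 13.3, 80.1 to 96.0 and 31.6 to 34.7 CPM, against 21.6 to 73.1, 5.0 to 37.8, 81.2 to 203 and 21.6 to 744 CPM in the other libraries. In footprints the haploid-specific sum was instead the highest of the 8 isolates in CMP, 232 and 300.4 CPM against 30.3 to 247 CPM, and 3 of the 7 genes tested were called higher and none lower. At the footprint depth of CMP such sums rest on few reads. Footprint differences also ran higher in all genes of low mRNA level. Their median was 1.78 in the 42 genes up to 3 CPM of mRNA in the other 7 isolates, and 0.72 in the 160 genes from 3 to 10 CPM. Fewer cells in a given state and less mRNA per cell cannot be told apart in such bulk samples.

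In mRNA, 3371 of 6269 genes tested (53.8%) were called, 1726 higher (27.5%) and 1645 lower (26.2%) in CMP. In footprints, 1006 of 5347 (18.8%) were called, 610 higher (11.4%) and 396 lower (7.41%). In translation efficiency, 287 of 5337 (5.38%) were called, 206 higher (3.86%) and 81 lower (1.52%). The medians over all genes tested were 0.00, 0.06 and 0.03 on the log2 scale. Because a call in mRNA was so common, the counts below are to be read against these shares. For some lists the text also gives how many genes had both CMP libraries above or below all 14 others. That held for 5.07% of the genes tested in mRNA, 5.37% in footprints and 5.02% in translation efficiency. In the lists of complex IV, glycolysis, heat shock chaperones and the cell wall, described below, it held for 0 genes in mRNA and 0 in footprints.

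A gene that differed in CMP was not always most extreme in CMP. Of the 663 genes called at least 1 log2 unit higher in mRNA, CMP was the highest of the 8 isolates in 180 (27.1%, against 7.42% of all genes tested), and BAN was above CMP in 405. Of the 451 called at least 1 log2 unit lower, CMP was the lowest in 158 (35.0%, against 6.0%). In footprints CMP was the highest in 283 of 494 (57.3%, against 14.1%) and the lowest in 135 of 258 (52.3%, against 10.7%). These genes were chosen for their difference in CMP, so shares above those of all genes follow from the choice. The level of BAN is given below where it lies near that of CMP.

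**Figure D1:**
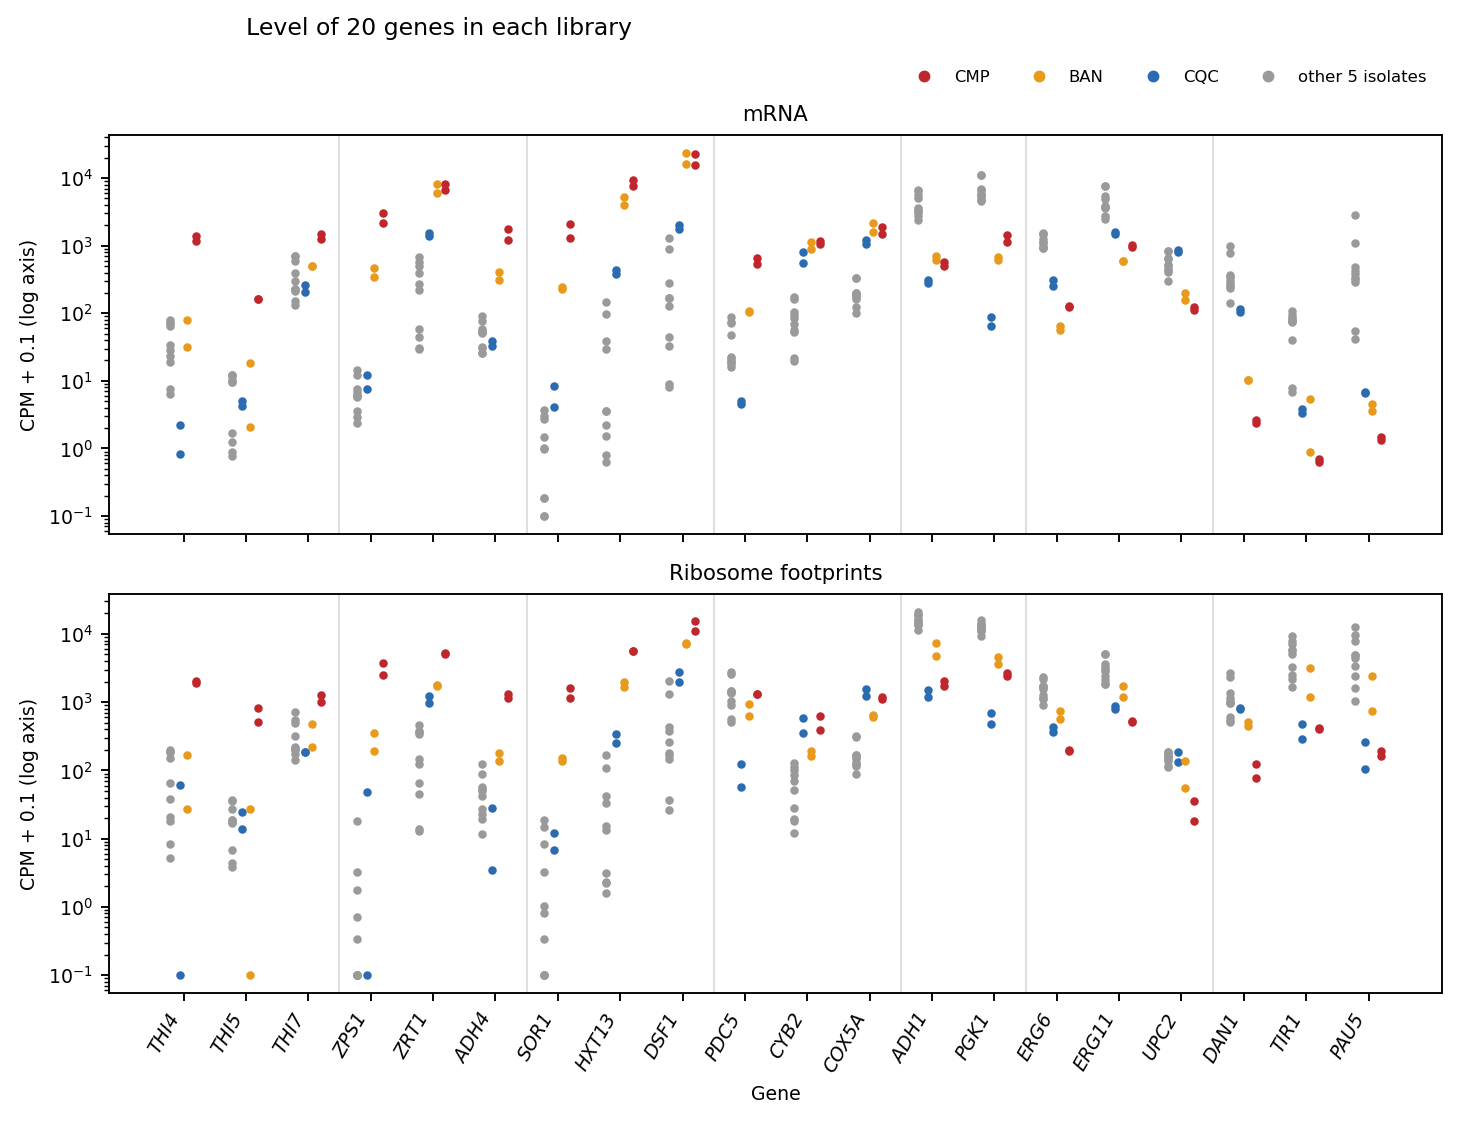
Level of 20 genes in each of the 16 mRNA libraries (upper panel) and 16 footprint libraries (lower panel), in CPM plus 0.1 on a log axis. Each point is 1 library, coloured for CMP, BAN and CQC and grey for the other 5 isolates. THI4, THI5, ZPS1 and SOR1 were above every other library in both panels, while DSF1 and ZRT1 mRNA in CMP lay beside BAN and DAN1 lay below all others.

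Thiamine synthesis set CMP apart from all other isolates. All 10 genes of the list were called higher in mRNA, with a median difference of 3.47, and 8 in footprints, with a median of 5.01, and none was called lower. Their summed mRNA level was 2422 and 2669 CPM in CMP, against 209, 408 and 789 CPM for the lowest, the median and the highest of the 14 other libraries. The summed footprint level was 4549 and 5346 against 143, 366 and 696 CPM. Both CMP libraries lay above all 14 others for 7 of the 10 genes in each assay.

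THI4, which makes the thiazole part of thiamine, had 1170.1 and 1368 CPM of mRNA in CMP against 0.740, 30.2 and 78.5 CPM (lowest, median, highest) elsewhere. The groups did not overlap, and the difference was 5.90 ± 0.16 (adjusted p = 1.11e-12). Its footprints were 2055 and 1882 against 0, 49.3 and 202 CPM, a difference of 5.34 ± 0.27 (adjusted p = 4.89e-08). The 4 near-identical genes THI5, THI11, THI12 and THI13, which make the pyrimidine part, had mRNA differences of 4.31 to 5.03 and footprint differences of 5.46, 5.35, 5.52 and 6.13. Reads that fit more than one of them could have been split or shared, so the 4 values are not separate measurements. THI22, a relative of the pyrimidine kinases, rose by 2.62 ± 0.15 in mRNA, and THI6, which joins both parts, by 0.80 ± 0.09. THI20 and THI21, the pyrimidine kinases, and THI80, the thiamine pyrophosphokinase, were called higher in mRNA by 0.94, 0.67 and 1.14, but with levels inside the range of the other libraries.

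Uptake and regulation of thiamine moved less evenly. THI7, the main thiamine transporter, had 1475 and 1268 CPM of mRNA against 133, 281 and 715 CPM, and the difference of 2.10 ± 0.13 (adjusted p = 8.23e-09) was matched by 2.02 ± 0.17 in footprints. PET18, a protein with a thiaminase-like domain, rose by 1.61 ± 0.11 in mRNA and 2.26 ± 0.30 in footprints, and for both genes neither assay overlapped. PHO3, the phosphatase that frees thiamine from its phosphates, rose by 2.31 ± 0.11 in mRNA, but AMH was higher than CMP at 1284 CPM. The activator THI2 had 117 and 126 CPM of mRNA against 11.1, 29.2 and 65.1 CPM, again with no overlap, a difference of 2.01 ± 0.09. Neither its partner THI3 (mRNA -0.16 ± 0.11, adjusted p = 0.219) nor PDC2 (-0.20 ± 0.09, adjusted p = 0.0703) was called in mRNA. Footprints of THI3 were 59.4 and 106 against 8.27, 25.3 and 41.7 CPM, and its translation efficiency was higher by 2.09 ± 0.37 (adjusted p = 4.32e-04). In the vitamin B6 list, which shares the pyrimidine precursor pathway, 5 of 10 genes were higher and 1 lower in mRNA. In footprints the counts were 2 and 0. These shares were near the 53.8% (mRNA) and 18.8% (footprints) called over all genes tested. The summed level of CMP ranked 6 of the 8 isolates in mRNA and 5 in footprints.

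PDC5, the thiamine-responsive isoform of pyruvate decarboxylase, had 541 and 652 CPM of mRNA against 4.44, 21.9 and 106 CPM, a difference of 4.36 ± 0.11 (adjusted p = 4.26e-13) with no overlap. Its footprints were 1324 and 1325 against 57.7, 999 and 2759 CPM, a difference of 0.73 ± 0.16, inside the range of the others and no longer called without CQC. The ratio was accordingly lower at -3.60 ± 0.23 (adjusted p = 2.46e-11), the lowest among called genes that averaged 100 CPM or more in both assays and lay beyond all other libraries. PDC1, the main isoform and close in sequence to PDC5, was looked up after these values had been seen. It averaged 797 CPM of mRNA and 8482 CPM of footprints in CMP, and 1060.5 and 11652 CPM elsewhere. Its fitted differences, from the mean of the logarithms, were 0.48 ± 0.12 in mRNA, which turned to -0.39 for PDC1 mRNA without CQC, and -0.01 ± 0.16 in footprints, which was not called. Short footprints that fit both genes could have been assigned to either, so the footprint level of PDC5 is uncertain.

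The zinc response was another program whose summed level in CMP lay above every other library. In mRNA 12 of the 20 Zap1 targets were higher and 6 lower (median 0.82), and in footprints 9 were higher and 3 lower (median 0.95). The summed level was 13650.4 and 17334 CPM of mRNA against 2554, 3877 and 12444 CPM, and 12850.0 and 15004 against 3188, 5177 and 6260.0 CPM of footprints. Neither assay overlapped, although BAN came close in mRNA at a mean of 10905 CPM. Both CMP libraries exceeded all 14 others for 5 of the 20 genes in mRNA and for 9 in footprints.

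ZPS1, a cell wall protein induced by low zinc, had 2147 and 3089 CPM of mRNA against 2.30, 7.06 and 463 CPM, a difference of 7.83 ± 0.14 (adjusted p = 6.46e-15). Its footprints were 2482 and 3729 against 0, 0.423 and 359 CPM and differed by 10.39 ± 0.42, with no overlap in either assay. The highest of the other libraries came from BAN. On the left end of chromosome VII, ADH4 (15159 to 16307) and ZRT1 (20978 to 22108) are neighbours, and VEL1 (11110 to 11730) lies 1 frame beyond ADH4. VEL1, a gene induced in low zinc, rose by 7.27 ± 0.28 in mRNA, ADH4, an alcohol dehydrogenase, by 4.65 ± 0.10, and ZRT1, the high-affinity zinc transporter, by 4.30 ± 0.11. ZRT1 mRNA was 6692 and 8221 CPM against 29.1, 449 and 8205 CPM and overlapped with BAN, whereas its footprints, 5166 and 5275 against 13.1, 358 and 1795 CPM, did not overlap with any library. ATG41, an autophagy protein, rose by 2.77 ± 0.18 in mRNA and 2.41 ± 0.25 in footprints, with BAN above CMP, and ZAP1 itself by 2.16 ± 0.13 and 1.82 ± 0.46. The list was not uniform. IZH4, a membrane protein of zinc metabolism, was lower in mRNA at -2.60 ± 0.20, and NRG2, a repressor of glucose-repressed genes, by -1.86 ± 0.24. The zinc-dependent alcohol dehydrogenases ADH1 and ADH3, which yeast turns down in low zinc, were lower in both assays, at -1.99 ± 0.13 and -0.59 ± 0.14 in mRNA and by -2.37 ± 0.20 and -1.14 ± 0.20 in footprints. ADH1 footprints were 1722 and 2032 CPM in CMP against 1191, 14170.3 and 20864 CPM elsewhere, with only CQC lower.

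The largest upward mRNA differences among the named genes fell on genes for the use of sugar alcohols (polyols) such as sorbitol and mannitol. Of 11 genes tested, 10 were higher in each assay, with a median of 7.03 in mRNA and 6.75 in footprints. Their summed mRNA level was 55069 and 78277 CPM in CMP against 205, 786 and 70547 CPM. BAN, with a mean of 59989 CPM, overlapped with CMP in mRNA and no other isolate did. Summed footprints were 46519 and 58920.4 against 283, 1529 and 25969.6 CPM and did not overlap.

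SOR1, a sorbitol dehydrogenase, had 1315 and 2099 CPM of mRNA in CMP against 0, 2.01 and 247 CPM, a difference of 10.04 ± 0.17 (adjusted p = 6.46e-15). Footprints were 1164 and 1626 against 0, 4.99 and 152 CPM, a difference of 8.66 ± 0.23. All CMP libraries exceeded all others, and BAN was next with a mean of 237 CPM of mRNA. SOR2, its near-identical copy, had differences of 10.02 and 8.98. The polyol transporters HXT13, HXT15, HXT16 and HXT17, close relatives of the hexose transporters, had mRNA differences of 8.07, 7.21, 7.34 and 7.03 and footprint differences of 7.08, 6.76, 6.75 and 6.79. HXT13 mRNA was 7557 and 9318 CPM against 0.520, 34 and 5270.4 CPM, with BAN next. DSF1, a mannitol dehydrogenase, had 15679 and 22476 CPM of mRNA against 8.06, 224 and 23495 CPM, where BAN overlapped with CMP, and 10914 and 15561 against 26.3, 405 and 7373 CPM of footprints, where it did not. XYL2, a xylitol dehydrogenase, did not pass the test in mRNA (-0.05 ± 0.28, adjusted p = 0.896) and its footprints were higher by 2.37 ± 0.44. The list holds several near-identical pairs, and XYL2 resembles the SOR genes, so reads could have been shared among all of them.

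These genes sit in neighbouring pairs near chromosome ends. DSF1 (chromosome V, 19589 to 21097) lies 439 bases from HXT13, HXT15 (IV, 11657 to 13360) lies 1900 bases from SOR2, HXT16 (X, 732440 to 734143) lies 1900 bases from SOR1, and HXT17 (XIV, 772657 to 774351) lies 440 bases from MAN2. MAN2, a copy of DSF1, and YNR071C, the frame on the other side of HXT17, were looked up after the values of HXT17 had been seen. Both belong to the polyol list and are already part of its counts, medians and sums given above. They were higher by 5.42 ± 0.15 and 6.92 ± 0.14 in mRNA and by 4.5 ± 0.24 and 6.05 ± 0.15 in footprints. A second pair of chromosome ends carried genes for membrane transporters that were also among the highest differences in mRNA. VBA5 and GEX2 (XI, 658716 to 663289) rose by 6.56 ± 0.10 and 6.24 ± 0.24, VBA3 (III, 9706 to 11082) by 6.42 ± 0.12, and its neighbour GEX1, looked up in the same way, by 5.83 ± 0.24. The VBA genes are named for vacuolar basic amino acid transport, and the GEX genes encode glutathione exchangers. VBA5 mRNA was 293 and 336 CPM in CMP against 0.173, 4.59 and 55.8 CPM, and its footprints were 439 and 345 against 0, 1.98 and 54.8 CPM, with no overlap. VBA3 and VBA5, like GEX1 and GEX2, are so alike that their reads may have been shared.

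**Figure D2:**
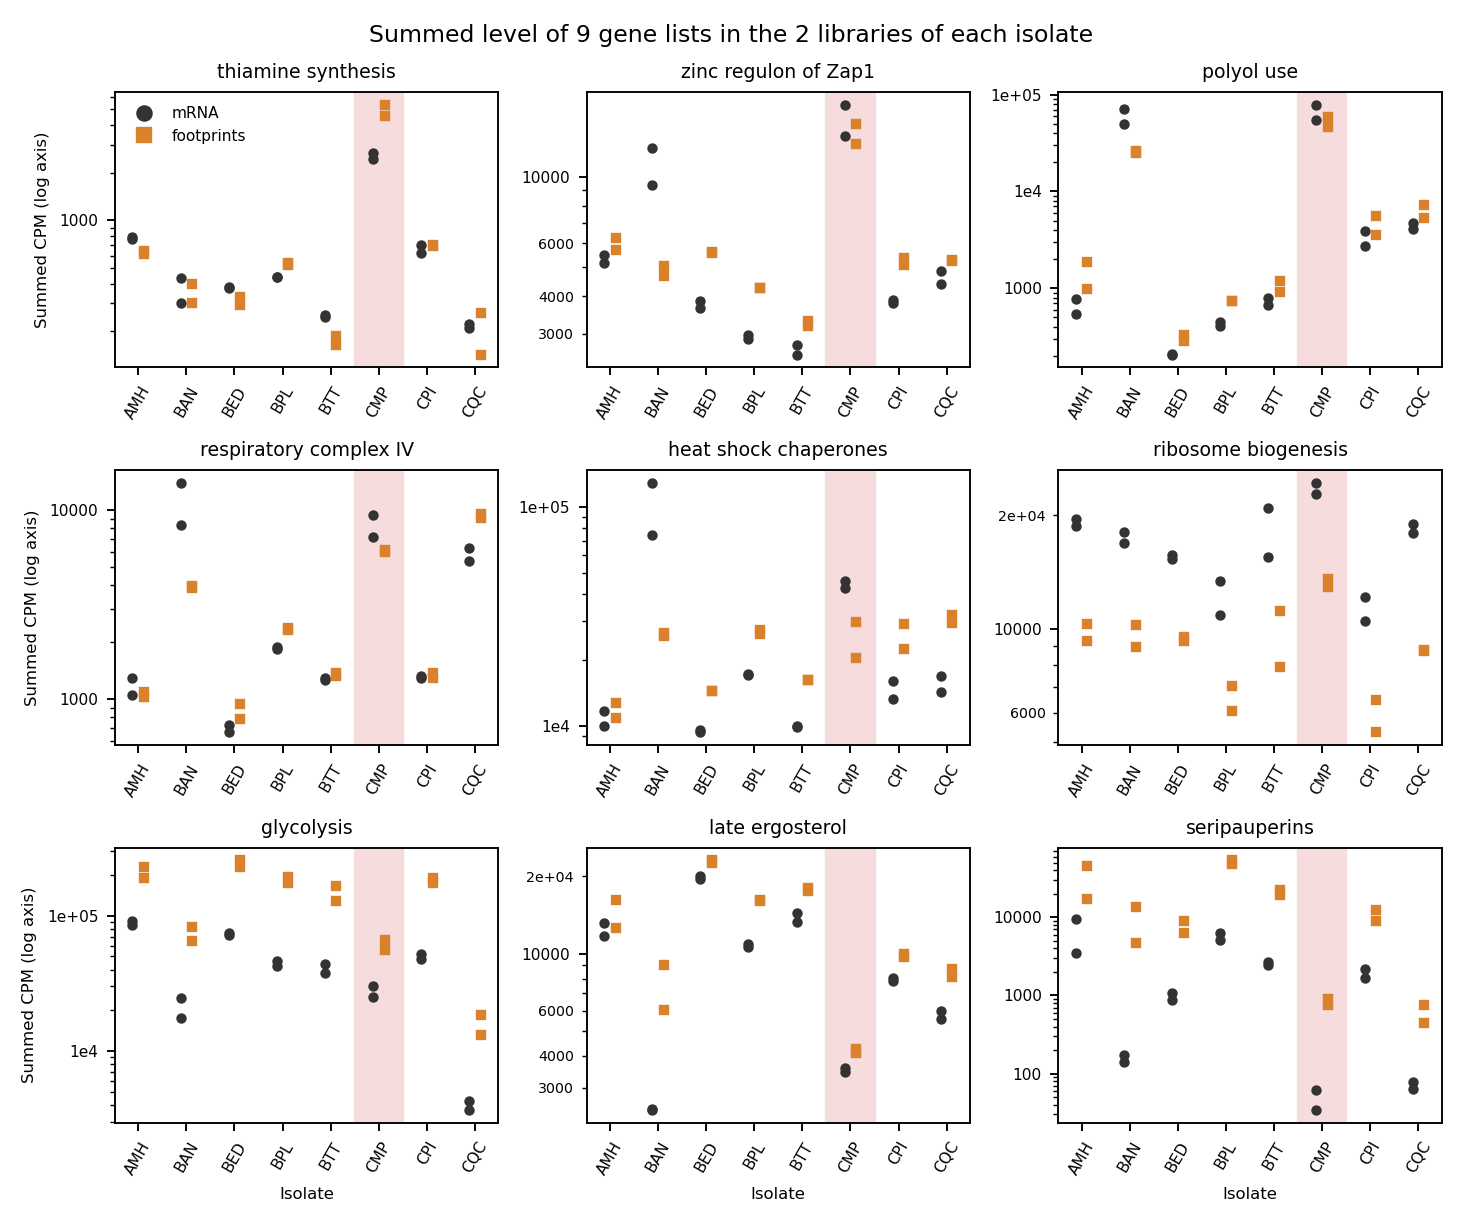
Summed level of 9 gene lists in each library, in CPM on a log axis, by isolate, with black circles for mRNA, orange squares for footprints, and CMP shaded. CMP stood alone in thiamine synthesis, lay beside BAN in polyol use and late ergosterol mRNA, and lay with BAN and CQC above the other isolates in respiratory complex IV.

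Hexose transport, glycolysis and fermentation were rearranged rather than moved as one. Among 18 hexose transporters and sensors, 8 were higher and 5 lower in mRNA, and 9 of 17 were higher and none lower in footprints. The high-affinity transporters HXT6 and HXT7, near-identical neighbours, rose by 2.09 ± 0.18 and 2.19 ± 0.18 in mRNA, where BAN was higher still at a mean of 27115 CPM for HXT7. The low-affinity transporter HXT3 had 174 and 201 CPM of mRNA against 248, 598 and 2612 CPM, below all other libraries by -1.97 ± 0.18. Its footprints, 3919 and 5258 against 1696, 2973 and 6809.9 CPM, were inside the range of the others. The translation efficiency of HXT3 was higher by 2.62 ± 0.26 (adjusted p = 9.17e-08), and that of HXT4 and HXT2 by 1.54 ± 0.21 and 2.92 ± 0.60. HXT genes resemble one another and the highly expressed HXT6 and HXT7, so footprints could have been assigned among them. The glucose sensor SNF3 was not called in mRNA (0.21 ± 0.13, adjusted p = 0.188) and rose by 1.82 ± 0.30 in footprints.

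Glycolytic enzymes were lower, more plainly in footprints than in mRNA. In mRNA 13 of 20 were lower and 3 higher (median -0.35), and in footprints 15 were lower and 1 higher (median -0.94). The summed footprint level was 55331 and 65981 CPM in CMP against 13167, 174625 and 256125 CPM, with only CQC lower, at a mean of 15819.7 CPM. PGK1, phosphoglycerate kinase, had 2417 and 2642 CPM of footprints against 482, 11497 and 15979 CPM, a difference of -1.44 ± 0.18 (adjusted p = 6.98e-08) that includes the very low CQC. PGI1, the phosphoglucose isomerase, differed by -0.99 ± 0.13 in mRNA and -1.28 ± 0.18 in footprints. The hexokinases went opposite ways, with HXK2, the main enzyme on glucose, lower at -1.66 ± 0.12 and HXK1 higher by 2.30 ± 0.20 in mRNA. ENO1, an enolase, was called higher in mRNA (0.73 ± 0.14) although its 4216 and 6022 CPM lay on either side of the median of the others, 5556 CPM. The lowest library, from CQC, was at 61.4 CPM, and without CQC the mRNA difference of ENO1 changed sign. In footprints ENO1 was lower, at -0.66 ± 0.18, and reads of ENO1 and the near-identical ENO2 could have been shared.

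In the fermentation and glycerol list, 5 of 12 genes were higher and 5 lower in mRNA, and 4 and 5 in footprints. ADH2 differed by -1.96 ± 0.16 in mRNA and -2.32 ± 0.21 in footprints, and ALD6, the cytosolic acetaldehyde dehydrogenase, by -1.61 ± 0.25 and -1.84 ± 0.28. ADH2 is close in sequence to the far more abundant ADH1. Gluconeogenesis and the glyoxylate cycle were higher in 14 of 18 genes in mRNA and 8 of 17 in footprints, with 1 and 0 lower. Their summed level was 7664 and 7752 CPM of mRNA and 5249 and 4957 CPM of footprints in CMP. CQC was higher in both assays, at means of 13547 and 13652.5 CPM. PCK1, which starts gluconeogenesis, had 660.4 and 872 CPM of mRNA against 2.09, 9.39 and 855 CPM and rose by 4.45 ± 0.12 (adjusted p = 1.30e-12), with BAN overlapping. Its footprints rose by 4.33 ± 0.18. ODC1, a mitochondrial 2-oxodicarboxylate transporter, was one member of this list with no overlap, at 189 and 257 CPM of mRNA against 30.4, 49.6 and 98.9 CPM, a rise of 2.13 ± 0.10. Of peroxisomal fatty acid oxidation genes, 7 of 16 were higher and 3 lower in mRNA, and 6 of 15 and 0 in footprints. In mRNA the share called was not far above the 53.8% of all genes tested. Their summed mRNA was 563 and 513 CPM in CMP and 1495 CPM on average in CQC, which was also highest in footprints.

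Respiratory genes were higher in CMP in nearly every complex. All 9 genes of complex III were higher in both assays (medians 1.67 and 1.16). Of the 10 nuclear genes of complex IV, cytochrome c oxidase, 9 were higher and 1 lower in mRNA (median 2.05), and 9 higher and 0 lower in footprints (median 1.55). In ATP synthase 17 of 17 mRNAs (median 1.59) and 15 of 17 footprint levels (median 1.06) were higher, and in complex II 4 of 5 in each assay. The tricarboxylic acid cycle was milder, with 8 of 16 genes higher in mRNA and 4 in footprints and none lower. With the trend on coding length removed, or without BED, the footprint count turned to 0 higher and 2 lower, and without the first CMP footprint library to 0 and 1.

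CMP was not alone in this. Summed complex IV mRNA was 7183 and 9392 CPM against 664, 1309 and 14019 CPM, with BAN higher at a mean of 11166 CPM. In footprints the sum was 6152 and 5982 against 781, 1370.3 and 9528 CPM, with CQC higher at a mean of 9299 CPM. COX5A, the aerobic form of subunit 5, had 1495 and 1907 CPM of mRNA against 100.4, 199 and 2199.9 CPM and rose by 2.33 ± 0.11 (adjusted p = 6.0e-10). QCR10, a small subunit of complex III, rose by 2.57 ± 0.16 in mRNA and by 2.46 ± 0.15 in footprints, where both CMP libraries (843 and 1219 CPM) exceeded all others (up to 777 CPM). CYB2, which passes electrons from lactate to cytochrome c, rose by 3.02 ± 0.12, the external NADH dehydrogenase NDE1 by 2.41 ± 0.14, and the activator subunit HAP4 by 1.77 ± 0.18 in mRNA. INH1, an inhibitor of ATP synthase, was above all others at 240.4 and 312 CPM against 32.2, 86.0 and 194 CPM.

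Genes encoded in the mitochondrion rose in mRNA as well, 8 of 8 with a median of 1.52, from COX3, a core subunit of complex IV (2.29 ± 0.12), and OLI1, the rotor subunit of ATP synthase (2.22 ± 0.14), to VAR1, a mitochondrial ribosomal protein (0.66 ± 0.11). Their summed mRNA level in CMP was the third highest of the 8 isolates. Only 3 of the 8 had enough footprints to be tested, of which 1 was called higher, so little can be said of their translation. Mitochondrial ribosomal proteins were higher in 62 and lower in 5 of 92 genes in mRNA (median 0.48) but higher in only 5 and lower in 1 of 90 in footprints. With the trend of mRNA difference on coding length removed, 34 were called higher and 6 lower.

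Low-oxygen and sterol genes went the other way. Of 16 genes in the hypoxic list, 13 were lower and none higher in mRNA (median -2.94) and 12 were lower in footprints (median -2.56). The list includes HYP2, the counterpart of ANB1 that is made with oxygen, at -0.24 in mRNA and -0.07 in footprints. The summed footprint level of 5315 and 4507 CPM was below all other libraries, whose lowest, median and highest were 8026, 24666 and 49534 CPM. The summed mRNA level, 4662 and 4988 against 4092, 7965 and 32735 CPM, overlapped with the others, and BAN was lower at a mean of 4501 CPM. DAN1, a cell wall mannoprotein made without oxygen, had 2.26 and 2.55 CPM of mRNA against 10.1, 259.7 and 990.4 CPM, a difference of -6.21 ± 0.31 (adjusted p = 1.25e-09), and 77.2 and 124 against 442, 887 and 2715 CPM of footprints (-3.23 ± 0.27). TIR1 and TIR4, mannoproteins of the same kind, differed by -5.35 ± 0.53 and -5.02 ± 0.36 in mRNA and by -2.80 ± 0.31 and -4.43 ± 0.43 in footprints. In DAN1 and TIR4 neither assay overlapped, whereas TIR1 footprints overlapped with CQC. The seripauperins (PAU), a large subtelomeric family of near-identical small mannoproteins, were lower in 18 of 24 tested genes in mRNA and 21 in footprints, with none higher. Their summed mRNA level was 34 and 60.8 CPM against 64.0, 1939 and 9444 CPM, with CQC next at a mean of 70.8 CPM. In footprints the sum was 754 and 901 against 448, 13104 and 54049 CPM, with CQC lower at a mean of 606 CPM. PAU5 had 1.22 and 1.37 CPM of mRNA against 3.50, 308 and 2804 CPM. Reads of this family could have been shared among its members. The flavohemoglobin YHB1, which removes nitric oxide, differed by -3.99 ± 0.46 in mRNA and -3.74 ± 0.28 in footprints.

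Sterol synthesis was lower along its whole length. In the late, ergosterol-specific steps 14 of 14 mRNAs (median -1.08) and 13 footprint levels (median -1.26) were lower. In the earlier mevalonate and squalene steps 10 of 12 were lower and 1 higher in mRNA, and 9 and 0 in footprints. Summed late ergosterol footprints were 4085 and 4250.3 CPM against 6027, 14319.9 and 23136 CPM, below every other library, whereas in mRNA BAN was lower than CMP. ERG6, the sterol methyltransferase, had 202 and 194 CPM of footprints against 359.7, 1209.6 and 2303 CPM, a difference of -2.49 ± 0.22 (adjusted p = 2.38e-11), and -2.31 ± 0.13 in mRNA. ERG11, the sterol demethylase that azoles inhibit, differed by -2.08 ± 0.19 in footprints and ERG3, the desaturase, by -2.12 ± 0.20, both below all other libraries. UPC2, the activator of these genes, had 112 and 125 CPM of mRNA against 156, 519 and 860.5 CPM and differed by -2.05 ± 0.18, and by -2.54 ± 0.42 in footprints, with no overlap in either assay. Footprints of its relative ECM22 differed by 0.08 ± 0.62 (adjusted p = 0.966). In heme synthesis, 4 of 9 genes were lower and 3 higher in mRNA, and 5 lower and 1 higher in footprints. HEM13, the step that consumes oxygen, differed by -2.36 ± 0.18 and HEM15, ferrochelatase, by -2.06 ± 0.15, while the first enzyme HEM1 was not called (0.17 ± 0.12, adjusted p = 0.251). HAP1, the heme-sensing activator, differed in mRNA by -0.02 ± 0.13 (adjusted p = 0.908), but by 0.80 with the trend on coding length removed.

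**Figure D3:**
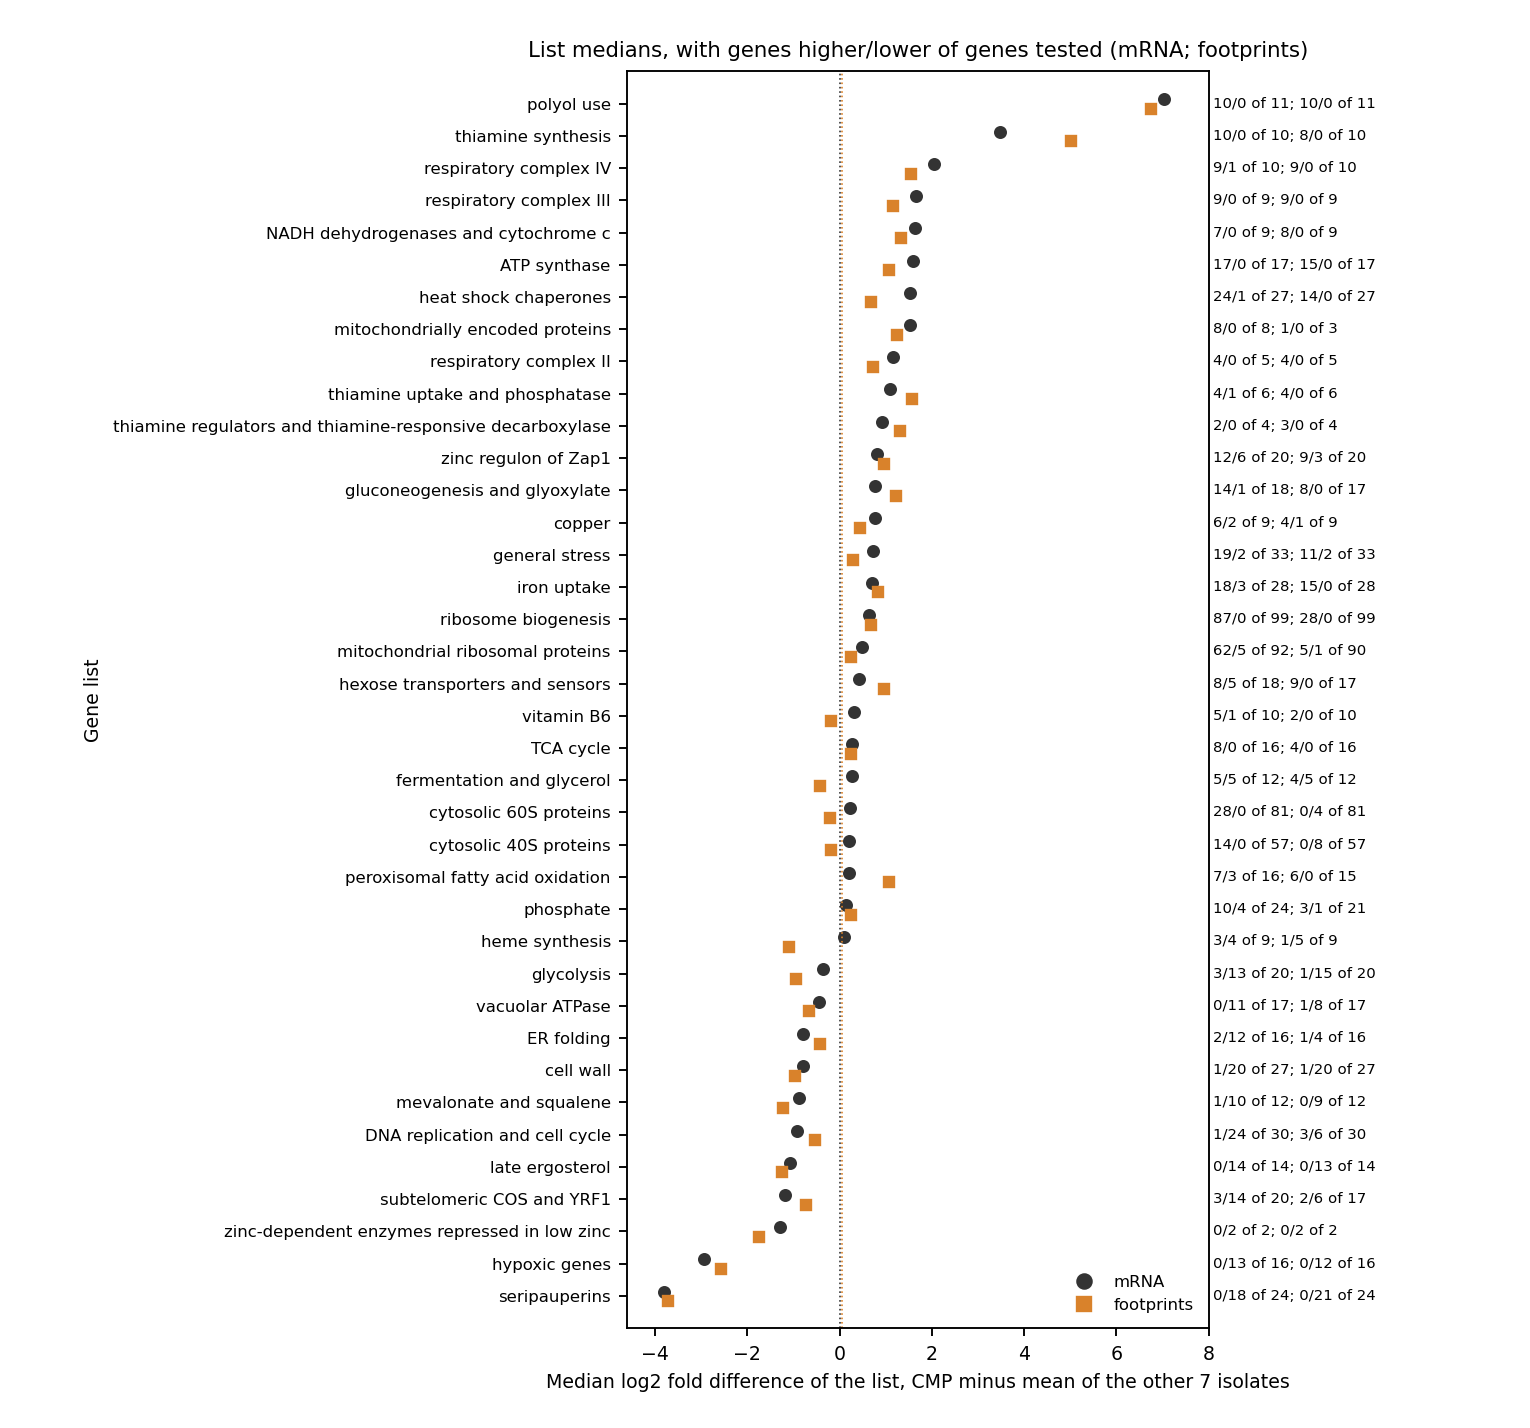
Median log2 fold difference of CMP from the other 7 isolates in 38 gene lists, for mRNA (black circles) and footprints (orange squares), with the medians of all genes tested as dotted lines (0.00 and 0.06). The numbers at the right give genes higher and lower of those tested, first for mRNA and then for footprints, from 10/0 of 11 in polyol use to 0/18 of 24 in the seripauperins.

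Ribosome biogenesis was higher, and the ribosomal proteins had no direction that held under every setting. Of 99 genes of ribosome biogenesis, 87 were higher and none lower in mRNA (median 0.64), and 28 higher and none lower in footprints (median 0.69). The summed level of 22848 and 24455 CPM of mRNA exceeded all 14 others (10519.9 to 20956 CPM), as did the footprints (13539 and 12928 against 5314 to 11174 CPM). NSR1, a nucleolar protein, had 1165 and 1327 CPM of mRNA against 261, 434 and 1085 CPM and rose by 1.30 ± 0.13 in mRNA and 0.88 ± 0.18 in footprints, without overlap. REI1, which matures the large subunit, rose by 1.52 ± 0.13 in mRNA, and the helicase DBP8 by 0.94 ± 0.15. In contrast, 14 of 57 proteins of the small cytosolic subunit and 28 of 81 of the large one were higher in mRNA (medians 0.20 and 0.22) and none was lower. In footprints none was higher, and 8 and 4 were lower (medians -0.18 and -0.21). These are short genes, and with the length trend removed the mRNA counts turned to 0 higher and 8 lower for the small subunit and 2 higher and 15 lower for the large one, and without CQC to 3 and 7 and to 5 and 8. With library totals as the scaling, 1 gene of each subunit was higher and none lower in footprints. No direction can therefore be given for the ribosomal proteins in either assay.

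Chaperone mRNAs were high, with BAN above CMP. The heat shock list counts 27 genes, of which mRNA was higher in 24 and lower in 1 (median 1.53) and footprints were higher in 14 and lower in 0 (median 0.67). Their summed mRNA level was 45861 and 42547 CPM in CMP, between the median of the other libraries (13764 CPM) and BAN (mean 101379 CPM). The summed footprint level was not raised in the same way. It was 29791 and 20403 against 10871, 24021 and 31973 CPM, rank 5 of the 8 isolates. BTN2, which sorts misfolded proteins, rose by 5.02 ± 0.14 in mRNA and 4.48 ± 0.23 in footprints, the Hsp70 SSA4 by 3.30 ± 0.13 and 2.61 ± 0.21, and the disaggregase HSP104 by 2.40 ± 0.16 and 1.47 ± 0.17. HSP30, a plasma membrane protein induced by heat and glucose exhaustion, rose by 3.86 ± 0.23 in mRNA. Translation efficiency was lower for 7 of the 27 and higher for none, for example in the Hsp40 SIS1 (-0.98 ± 0.21, adjusted p = 0.00354) and the Hsp90 cochaperone STI1 (-0.94 ± 0.21). Without BAN, 20 were lower. HSF1, their activator, had an mRNA difference of -0.30 ± 0.10, which was -0.08 and no longer called with the length trend removed. Among 33 general stress genes, 19 were higher and 2 lower in mRNA, and 11 and 2 in footprints. Their summed level in CMP ranked 3 of the 8 isolates in both assays. BAN was highest in mRNA (mean 65945 CPM) and CQC in footprints (mean 87126.5 CPM).

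Some genes of iron, copper and phosphate uptake rose, but the summed levels of all 3 lists were highest in CQC in both assays. CMP ranked 2, 2 and 4 of the 8 isolates in mRNA and 3, 2 and 3 in footprints. Summed iron footprints were 10059 and 9791 CPM in CMP and 17574 CPM on average in CQC. Of 28 iron genes, 18 were higher and 3 lower in mRNA, and 15 and 0 in footprints. ARN2, a siderophore transporter, had 956 and 1165 CPM of mRNA against 0, 335 and 629 CPM and 469 and 442 against 6.79, 152 and 384 CPM of footprints, above all others in both. Its mRNA difference of 5.24 ± 0.18 is much larger than the ratio to the median since the lowest library was at 0 in mRNA, and its ratio of footprints to mRNA differed by -2.70 ± 0.34. The ferric reductase FRE4 also exceeded all others, by 2.68 ± 0.24 in mRNA, while the activator AFT1 was not called (0.26 ± 0.12, adjusted p = 0.0888). In the copper list 6 of 9 genes were higher and 2 lower in mRNA, and 4 and 1 in footprints. CTR3, a copper transporter, had 801 and 697 CPM of mRNA against 40.7, 193 and 372 CPM and rose by 2.43 ± 0.09 in mRNA and 2.09 ± 0.17 in footprints, without overlap. The copper chaperone CCS1 and its target SOD1, the superoxide dismutase, were lower in mRNA at -0.91 ± 0.12 and -0.67 ± 0.15. Among 24 phosphate genes, 10 were higher and 4 lower in mRNA, and in footprints 3 of 21 were higher and 1 lower, or 1 and 1 without BAN or with the length trend removed. The shares of phosphate genes called were near the 53.8% (mRNA) and 18.8% (footprints) of all genes tested. PHO84, the high-affinity phosphate transporter, rose by 4.12 ± 0.23 in mRNA and 3.64 ± 0.28 in footprints and exceeded all others in both, while the acid phosphatase PHO5 differed by -2.0 ± 0.17 in mRNA.

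Called genes of the cell wall, the cell cycle, the vacuolar proton pump and protein folding in the endoplasmic reticulum were mostly lower. In the cell wall list 20 of 27 genes were lower and 1 higher in each assay (medians -0.79 and -0.96). ECM33, a cell surface protein, had 315 and 300.4 CPM of footprints against 244, 1101 and 2322 CPM and differed by -2.10 ± 0.13 in mRNA and -1.73 ± 0.19 in footprints. DNA replication and cell cycle genes were lower in 24 of 30 and higher in 1 in mRNA (median -0.93), but in footprints 6 were lower and 3 higher. RNR1 and RNR4, subunits of ribonucleotide reductase, differed by -1.28 ± 0.14 and -1.80 ± 0.12 in mRNA and by -1.78 ± 0.30 and -1.66 ± 0.20 in footprints. The S-phase cyclin CLB5 was lower in mRNA at -1.10 ± 0.20 and higher in footprints by 2.21 ± 0.41. The vacuolar proton pump had 11 of 17 genes lower in mRNA and 8 in footprints, with 0 and 1 higher, and VMA2, one of its catalytic-sector subunits, differed by -0.73 ± 0.12 and -0.67 ± 0.17. Of 16 genes for protein folding in the endoplasmic reticulum, 12 were lower and 2 higher in mRNA, and 4 and 1 in footprints, with PDI1, protein disulfide isomerase, lower at -0.82 ± 0.13 in mRNA. Of these 4 lists, only the summed cell wall genes were lowest in CMP among the 8 isolates, in both assays, and BAN or CQC was next to or below CMP in each.

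No mRNA of the YRF1 genes, which encode helicases in the repeated Y' elements next to telomeres, was detected in CMP. All 8 had 0 mRNA reads in both CMP libraries, while the 8 together had 10 to 23493 mRNA reads in each of the other 14. BAN came nearest, with 86 and 10 reads, or 21.0 and 3.89 CPM, whereas CPI had 1946 and 2032 CPM. The lowest other isolate averaged 1.46 CPM of YRF1-8 mRNA and 1.61 CPM of YRF1-4 mRNA. Against the floor of 3 reads over both CMP libraries, 0.276 CPM, YRF1-8 mRNA was at least 485-fold lower than the mean of the other 7 and YRF1-4 at least 338-fold lower. Such a floor covers counting error only. CMP still had 13 and 18 footprint reads on these genes, 77.2 and 159 CPM, against 0 to 100 CPM elsewhere, and in both assays copies of the element cannot be told apart. In all, 40 open reading frames had at most 3 mRNA reads in CMP and a mean of at least 5 CPM elsewhere, 38 of them at 0 reads and 11 with a symbol.  Of the COS genes, which sort membrane proteins to the vacuole and lie beside the same telomeres, COS5 was lower in mRNA at -0.77 ± 0.14, and COS10 was higher by 3.04 ± 0.26.

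Footprints followed mRNA with a smaller amplitude. Across the 1239 genes at 100 CPM or more in both assays, the slope of the footprint difference on the mRNA difference, taken between different libraries to limit counting noise, was 0.80 (0.77 to 0.82 over pairs of libraries). The spread of the differences shared by the 2 replicates, the square root of their covariance across genes, was 1.31 log2 units in mRNA and 1.13 in footprints. Of the 1508 genes higher in mRNA and tested in both, 419 were higher and 6 lower in footprints, and the rest were not called. Of the 1580 lower in mRNA, 306 were lower and 58 higher. The genes are not independent replicates, and the slope is a description of these libraries.

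**Figure D4:**
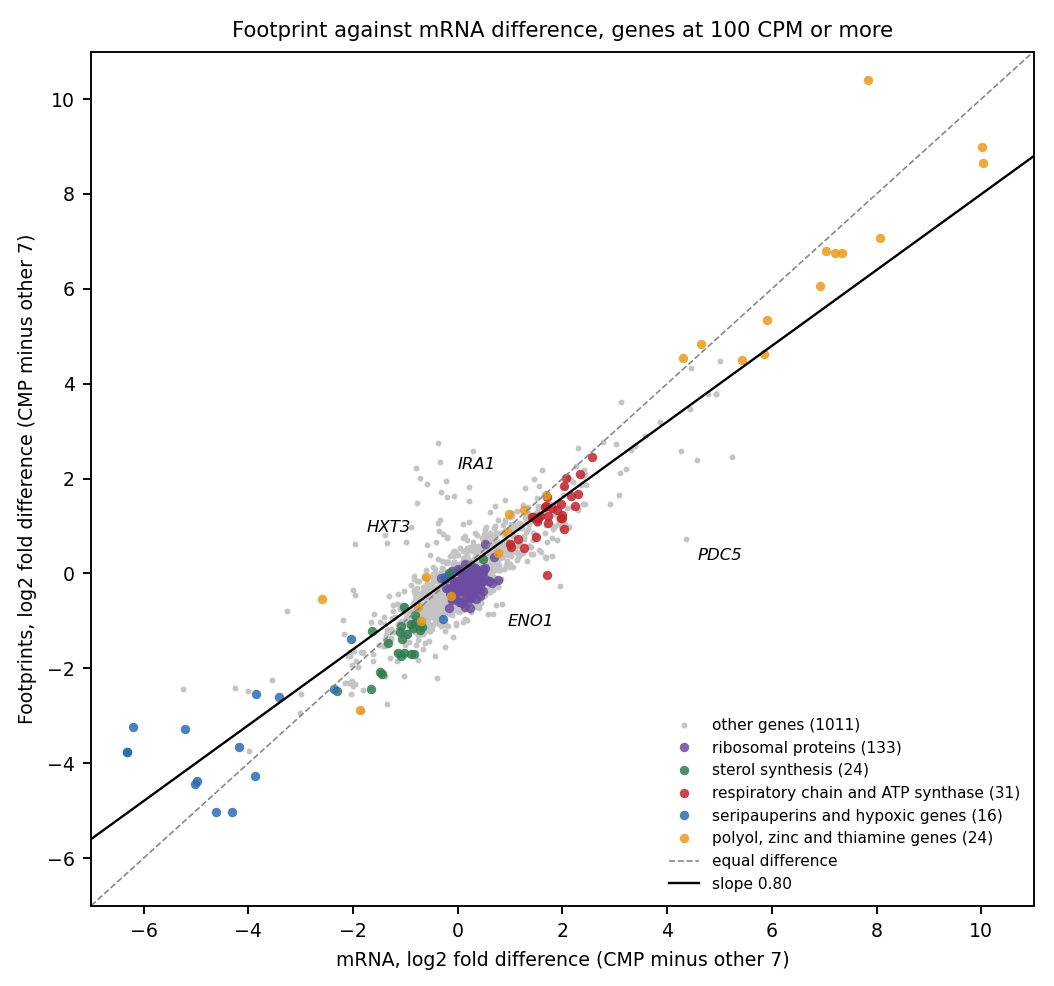
Footprint against mRNA log2 fold difference of CMP from the other 7 isolates for the 1239 genes at 100 CPM or more in both assays, 1 point per gene, coloured by list. The solid line is the slope of 0.80 and the dashed line marks equal differences, with PDC5 far below both lines and HXT3 and IRA1 above them.

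Translation efficiency was called in 287 genes against 3371 in mRNA, but mRNA was sequenced far more deeply. With mRNA thinned to footprint depth, 986 genes were called in mRNA and 115 in translation efficiency. The genes with the highest called ratios at 100 CPM or more in both assays, with both CMP values beyond all others, were HXT3, IRA1, SSM4, HXT4, TKL2 and ARN1, and the lowest included PDC5, ENO1, ARG8, NSP1 and SCW4. IRA1, a GTPase-activating protein that restrains Ras, had 316 and 367 CPM of mRNA against 151, 449 and 649 CPM, and 362 and 778 against 82.7, 145 and 356 CPM of footprints. Its ratio was higher by 2.22 ± 0.29 (adjusted p = 1.21e-05), with footprints above all other libraries and mRNA that was not called (-0.23 ± 0.18, adjusted p = 0.315). IRA1 is one of the longest genes, at 3093 codons, and with the length trend removed its ratio was 0.49 and no longer called. SSM4, a ubiquitin ligase of the endoplasmic reticulum, was higher by 2.06 ± 0.24, or 1.18 with the trend removed, with 416 and 459 CPM of footprints against 80.3, 103 and 318 CPM. TKL2, a transketolase, was higher by 1.5 ± 0.39, a call that was lost when mRNA was thinned to the depth of the footprints. ARG8, an enzyme of arginine synthesis, differed by -1.26 ± 0.32 and NSP1, a nucleoporin, by -1.22 ± 0.33, both on mRNA that was not called. With library totals as the scaling, neither ratio was called. Among less abundant genes whose mRNA differed by under 0.2, the ratio was higher for GPM3, a phosphoglycerate mutase homolog (2.98 ± 0.27), and for NSE3, a subunit of the Smc5-Smc6 complex (2.93 ± 0.29). NSE3 footprints were 2304 and 2554 CPM against 64.6, 234 and 2596 CPM, so another library reached the same level.

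The ratio also moved with coding length. In genes of up to 100 codons the median difference was 0.48 in mRNA, 0.34 in footprints and -0.31 in the ratio, and in genes over 1500 codons it was -0.58, 0.19 and 0.57. In the longest class 26 of 158 genes had a higher ratio and 1 a lower one. The 206 genes with a higher ratio had a median of 703.5 codons and the 81 with a lower ratio 363, against 429 codons for all genes. The part of length in the individual differences was not tested beyond removing the trend, after which 150 genes had a higher and 143 a lower ratio. The split of calls in the ratio also depended on scaling, with 192 higher and 140 lower under DESeq2's size factors and 310 higher and 31 lower under total counts. It depended on BAN too, whose footprint libraries are the shallowest, with 302 higher and 417 lower when BAN was left out.

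**Figure D5:**
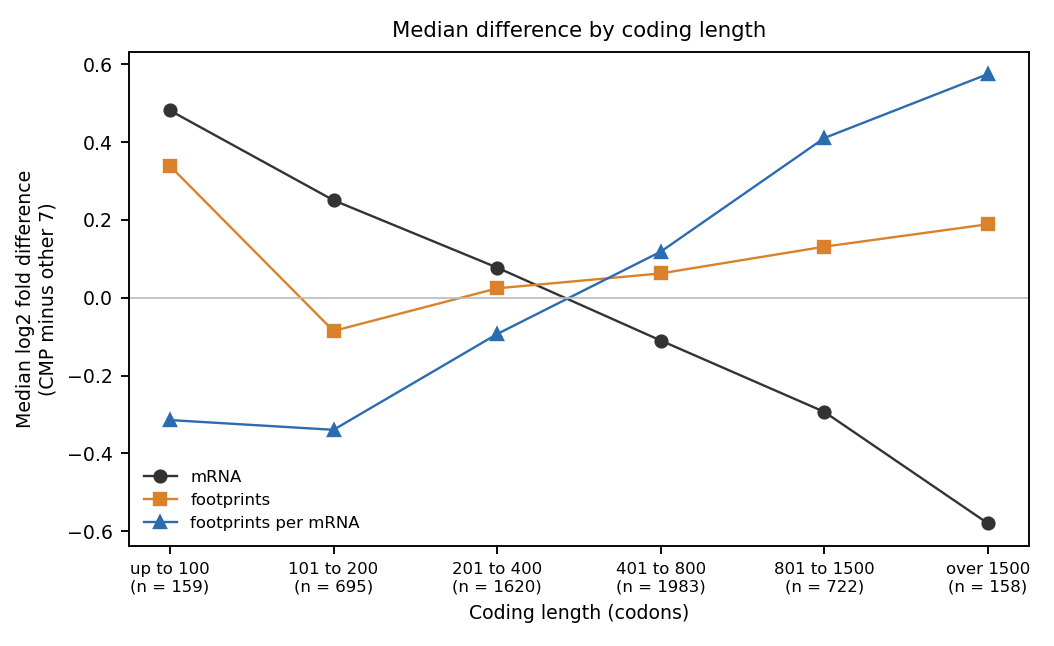
Median log2 fold difference of CMP from the other 7 isolates by coding length class, for mRNA (black circles), footprints (orange squares) and footprints per mRNA (blue triangles), with the number of genes in each class. The mRNA median falls from 0.48 to -0.58 with length while the median ratio goes from -0.31 to 0.57.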

How the data were processed

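The authors deposited raw counts, whole numbers for each open reading frame and library. CASAVA 1.8, STAR 2.7.0a and the sacCer3 genome are named in the submitters' processing notes, while the sources used here give no counting tool, strand setting or rule for reads that fit several genes. Of 6696 frames, 6008 matched the RefSeq gene table of assembly R64 and the other 688 held 0.379% of reads.

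Counts were scaled by TMM within each assay, filtered with filterByExpr (minimum count 10) and tested with edgeR's quasi-likelihood F-test (edgeR 4.0.16, limma 3.58.1, R 4.3.3), as CMP minus the unweighted mean of the 7 other isolates, and translation efficiency as the interaction of assay and isolate over all 32 libraries. P-values were adjusted by Benjamini-Hochberg with a threshold of 0.05. The step was tested on simulated data. Counting error was largest in footprints, whose depth in CMP was 99809 to 145164 reads. Alternatives were DESeq2 1.42.0 and its size factors, total counts, no filter, thinning to equal depth, removal of mitochondrial frames or of the length trend, a replicate block, and leaving out each library and each isolate.

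The genes named were the 10 highest and 10 lowest called in each layer beyond all other libraries and above a level floor, the largest changes of each described list with its regulators, and genes called oppositely or in footprints alone. Members and lists were chosen with earlier results of these data known.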

Additional observations from a re-analysis of the deposited data

Results flagged for a closer look

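In 64 genes mRNA and footprints were called in opposite directions, 58 with mRNA lower and footprints higher and 6 the reverse, and in all 64 the test of the difference between the assays, the translation efficiency, was called as well. The 58 had a median of 823.5 codons and of 47.5 CMP footprint reads, against 429 codons and 12 reads over all genes tested. Of the genes with the widest gaps each way and a symbol, 9 with more than 3 CMP mRNA reads are given here. These differences are CMP against the other 7 isolates by edgeR's quasi-likelihood test, and no explanation is offered for them. In 5 of the 9, mRNA was higher and footprints lower. ENO1, the enolase, had a ratio of -1.36 ± 0.24, but its mRNA was no longer called higher without CQC, nor its footprints lower without AMH, BED or BPL. HEM12, the uroporphyrinogen decarboxylase of heme synthesis, was higher in mRNA by 0.48 ± 0.09, lower in footprints at -1.20 ± 0.41, and lower in the ratio at -1.66 ± 0.34, though its footprint call was lost without BED, BPL, BTT or CPI and with DESeq2 or library totals. TFS1, an inhibitor of carboxypeptidase Y, had a ratio of -1.49 ± 0.40, SNA3, a vacuolar sorting adaptor, of -1.06 ± 0.27, and GLO1, glyoxalase I, of -1.02 ± 0.27. The ratio was no longer called for TFS1 without BTT or CQC, and for GLO1 with library totals.

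In the other 4 mRNA was lower and footprints higher, and few reads stand behind them. Footprint differences also ran higher in genes of low mRNA level as a group. FLR1, a drug efflux transporter, had 7.12 and 5.29 CPM of mRNA against 2.72, 12.8 and 29.2 CPM (lowest, median, highest) and 29.7 and 35.3 CPM of footprints against 0, 1.28 and 13.8 CPM, where the CMP values rest on 5 and 4 reads, with a ratio higher by 5.44 ± 1.03. IME2, a kinase of meiosis, was below all others in mRNA (7.30 and 6.27 against 7.61, 14.1 and 20 CPM) and above all others in footprints (17.8 and 17.7 against 0, 1.35 and 10.2 CPM), a ratio of 5.56 ± 1.13, with only 3 and 2 footprint reads in CMP. SPS100, a spore wall protein, had a ratio of 4.92 ± 1.22 on 13 and 5 footprint reads and SGA1, the sporulation glucoamylase, of 3.97 ± 0.61 on 9 and 10.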

How the results depend on the processing

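Of the differences given for single genes, 4 changed sign with a call involved. Without CQC the ENO1 mRNA difference was -0.17 and the PDC1 mRNA difference was -0.39. With the coding length trend removed, the HAP1 mRNA difference was 0.80 and the IRA1 mRNA difference was 1.28.

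Counts of calls moved by more than 1.5 times under these alternatives, and the cause was not tested. With mRNA thinned to footprint depth, 986 genes were called in mRNA, 691 higher and 295 lower, and 115 in translation efficiency, of which 59 higher; fewer reads were then compared. With library totals the footprint calls lower were 250, and the efficiency calls 310 higher and 31 lower, and totals shifted the median of all genes to -0.15 in mRNA, 0.31 in footprints and 0.37 in efficiency. DESeq2's Wald test called 466 efficiencies, 340 higher and 126 lower. Efficiency calls lower were 140 under DESeq2's size factors, 143 without mitochondrial frames, 143 with the length trend removed and 192 without AMH. Without BAN, efficiency calls were 719 in all, of which 417 lower. Without CQC, footprint calls lower were 602. The slope of footprint on mRNA differences was 0.74 with a floor of 30 CPM and 0.86 with one of 300 CPM.

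Leaving out 1 library at a time, calls ranged from 2363 to 3837 in mRNA (1195 to 1954 higher, 1168 to 1883 lower), from 543 to 1061 in footprints (341 to 621 higher, 198 to 452 lower) and from 85 to 465 in efficiency (60 to 234 higher, 25 to 235 lower). Leaving out either CMP footprint library gave 543 and 558 footprint calls, and without CMP footprint replicate 2 efficiency calls were 85. Efficiency calls lower also moved past 1.5 times without AMH mRNA replicate 2 (147), BAN mRNA replicate 1 (172) or 2 (235), BAN footprint replicate 2 (138), BPL footprint replicate 1 (127), and CQC footprint replicate 1 (122) or 2 (153). A lone CMP library was assumed to vary like the other isolates.

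Without the filter, and without BED, BPL, BTT or CPI, the counts stayed within 1.5 times. With the replicate block, 3405 genes were called in mRNA (1761 higher, 1644 lower), 994 in footprints and 284 in efficiency. The deviations of same-numbered libraries correlated over 0.1 in 10 of 28 isolate pairs in mRNA and in 6 of 28 in footprints. Between mRNA and footprints of the same isolate they did so in 7 of 8 (lowest 0.011, median 0.29, highest 0.74). The labels do not say whether same-numbered libraries share a culture. The efficiency test did not pair them, and the replicate block fits a common effect per assay for all isolates. Standard errors and p-values of the efficiency therefore do not allow for such sharing.

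Of the 38 lists the report describes, the majority of mRNA or footprint calls turned from higher to lower or the reverse only in the tricarboxylic acid cycle, the ribosomal proteins and, with thinned mRNA, the COS and YRF1 genes (3 higher and 2 lower against 3 and 14). Lists not described there were not held to this. Depth limits the footprints of CMP.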

Other observations

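Water channels and drug pumps were not part of the comparisons above. The aquaporin AQY1, chosen after its values had been seen, differed by 5.06 ± 0.26 in mRNA. The 19 drug efflux genes had a higher summed footprint level in CMP than in every other library, while BAN was higher in summed mRNA. The 32 genes of mitochondrial import and carriers had a summed mRNA level in CMP above all 14 other libraries, and their summed footprints were below those of CQC.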
